A study of Mus musculus with 8 samples.

Results

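Small noncoding RNA genes were examined in chromatin-associated RNA, the transcripts that stay bound to chromatin when nuclei are fractionated. A gene was taken if the deposited count table gave it a single exon block of 50 to 300 nt on an autosome or the X chromosome and at least 10 counts in at least 2 of the 8 libraries. Of 7157 genes of that shape, 5114 had no count in any library and 414 met the count rule. The 300 with the highest summed counts were kept, of 45706 genes in the table, so the genes were chosen by their counts, and their levels are given below as a description only. The last gene kept, Gm23127, had 90 counts in all. Gm25780 and Gm27271, which were left out, also had 90, and the tie was broken by gene identifier. By symbol the 300 genes fell into 145 named Gm, 91 Mir, 32 Snord, 15 Snora, 4 Scarna, 4 Rnu and 9 others. GENCODE M21 annotated 128 of them as small nucleolar RNA (snoRNA), 100 as microRNA (miRNA), 30 as small nuclear RNA (snRNA), 9 as small Cajal body RNA (scaRNA), 15 as miscellaneous RNA, 2 as ribosomal RNA and 1 as a ribozyme. The remaining 15 were annotated as pseudogenes, unconfirmed transcripts or, in 1 case, protein coding, so the size rule did not select small noncoding RNA alone.

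The cells were fibroblasts in primary culture from C57BL/6 mouse embryos, either wild type (WT) or crel-/-rela-/- (KO), which lack cRel and RelA, subunits of NF-kB that activate transcription. All cultures were kept overnight in low serum, and tumour necrosis factor (TNF), a cytokine that activates NF-kB, was then given at 10 ng/ml. There was 1 library for each genotype at 0, 15, 45 and 60 min, with no replicate and no untreated library at a later time, so effects of TNF cannot be told apart from those of elapsed time. The sources used here do not say whether libraries came from separate cultures or embryos, nor which part of each gene was deleted.

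Most snoRNAs guide chemical modification of ribosomal RNA. C/D snoRNAs carry a box C near the 5′ end and a box D near the 3′ end and direct ribose methylation, and H/ACA snoRNAs end in an ACA triplet a few bases from the 3′ end and direct the change of uridine to pseudouridine. The scaRNAs do the same for the snRNAs of the spliceosome. In mammals most snoRNAs lie in introns and are trimmed out of the spliced intron, whereas U2 snRNA and Rmrp have promoters of their own. Rmrp is the RNA of the ribonuclease MRP complex, which takes part in cutting precursor ribosomal RNA. A miRNA gene gives a hairpin within a longer primary transcript, and the hairpin is cut out in the nucleus by Drosha and Dgcr8 before it is exported.

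The sequences on which the genotype comparison turned are shown here as the GENCODE M21 transcripts (GRCm38, the mm10 build), written as DNA on the strand of the gene. Rmrp (chr4:43492788-43493058, minus strand) is shown because it held most of the counts, and Snora73b (chr4:132352322-132352526, minus strand) because it gave the most abundant snoRNA difference. Gm26448 (chr9:120129351-120129553, plus strand) is its relative in an intron of Rpsa, with 89.1% identity over 202 aligned bases, and differed in the opposite direction. Gm23455 (chr9:15316489-15316588, plus strand) and Gm22579 (chr9:15316676-15316808, plus strand) are snoRNAs that lie next to each other. They are downstream of Taf1d as deposited, but within the longer GENCODE M21 model of Taf1d. Snord49b (chr11:62603079-62603150, plus strand) is an example with both C/D boxes, and Gm25848 (chr16:32243712-32243855, minus strand) is the gene whose late response differed between genotypes. Capitals mark ACA before the last 3 bases, or TGATGA (box C) and CTGA (box D). Rmrp and Gm22579 have no capitals, since neither the ACA triplet at that place nor the 2 boxes together were found in them.
Rmrp: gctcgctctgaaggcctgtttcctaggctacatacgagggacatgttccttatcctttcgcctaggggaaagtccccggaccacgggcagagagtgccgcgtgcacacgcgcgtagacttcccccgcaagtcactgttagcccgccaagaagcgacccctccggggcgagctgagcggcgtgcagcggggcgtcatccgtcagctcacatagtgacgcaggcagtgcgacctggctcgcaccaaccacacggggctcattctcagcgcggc
Snora73b: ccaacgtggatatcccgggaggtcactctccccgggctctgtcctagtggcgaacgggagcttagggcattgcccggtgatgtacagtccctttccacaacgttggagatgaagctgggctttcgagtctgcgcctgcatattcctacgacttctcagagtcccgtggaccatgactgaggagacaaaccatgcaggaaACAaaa
Gm26448: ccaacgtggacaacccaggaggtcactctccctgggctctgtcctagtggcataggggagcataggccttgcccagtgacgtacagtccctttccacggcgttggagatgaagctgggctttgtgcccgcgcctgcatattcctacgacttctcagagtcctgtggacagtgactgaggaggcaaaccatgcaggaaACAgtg
Gm23455: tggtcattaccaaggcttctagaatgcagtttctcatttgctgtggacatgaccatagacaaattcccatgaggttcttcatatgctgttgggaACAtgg
Gm22579: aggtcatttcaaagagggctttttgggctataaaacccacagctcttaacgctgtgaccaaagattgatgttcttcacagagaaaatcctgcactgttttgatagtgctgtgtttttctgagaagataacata
Snord49b: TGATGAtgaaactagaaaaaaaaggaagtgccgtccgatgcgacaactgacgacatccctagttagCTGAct
Gm25848: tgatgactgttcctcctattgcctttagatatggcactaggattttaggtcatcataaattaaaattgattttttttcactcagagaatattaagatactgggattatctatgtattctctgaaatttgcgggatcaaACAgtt

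The ACA triplet at that position was found in 55 of the 137 snoRNA and scaRNA genes (40.15%), in 1 of 100 miRNA genes (1.0%) and in none of the other 63. TGATGA within the first 20 bases together with CTGA within the last 12 was found in 41 of the 137 (29.93%) and in no gene of the other classes. Only the transcribed strand was searched, and 3 genes held both patterns. Gm25848 begins with TGATGA, but CTGA was not in its last 12 bases.

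Gm22973 (chr12:59040335-59040525, plus strand) and Gm25360 (chr1:72226240-72226430, plus strand) are 191 nt genes close to U2 snRNA, the RNA that pairs with the branch point of the intron. Capitals mark the bases that differ from Rnu2-10, the U2 gene named as such, from which Gm22973 differed at 9 bases (95.29% identity) and Gm25360 at 4 (97.91%).
Gm22973: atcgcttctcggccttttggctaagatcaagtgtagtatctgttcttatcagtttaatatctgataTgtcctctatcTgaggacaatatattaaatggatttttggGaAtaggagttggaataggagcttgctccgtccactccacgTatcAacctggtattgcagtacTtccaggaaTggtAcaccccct
Gm25360: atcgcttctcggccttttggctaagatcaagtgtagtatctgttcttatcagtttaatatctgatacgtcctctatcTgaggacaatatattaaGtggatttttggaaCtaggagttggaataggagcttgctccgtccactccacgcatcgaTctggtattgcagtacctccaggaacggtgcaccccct

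Mature miRNA sequences were found in RefSeq (GRCm38.p6) for 89 of the 91 Mir genes. A selection is shown as RNA with the seed, bases 2 to 8, in capitals. It holds 6 of the loci called in a comparison below. Of these, Mir27a and Mir615 had their direction fixed by the filter on counts, as stated below, and are no support for a difference or a change. It also holds miR-27b-3p, from the most abundant Mir gene, which shares the seed UCACAGU with miR-27a-3p, and let-7i-5p, which stands for the 7 let-7 genes kept with the seed GAGGUAG.
miR-23a-3p: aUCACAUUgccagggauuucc
miR-27a-3p: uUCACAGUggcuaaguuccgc
miR-27b-3p: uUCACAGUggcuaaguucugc
miR-335-5p: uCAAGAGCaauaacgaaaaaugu
miR-1938: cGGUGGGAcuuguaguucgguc
miR-196a-5p: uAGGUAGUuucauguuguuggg
miR-615-3p: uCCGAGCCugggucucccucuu
let-7i-5p: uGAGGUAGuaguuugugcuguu

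The libraries held 12359817 to 15607331 counts, of which 58.9% to 70.6% fell on 3 gene models, Gm26917, Gm42418 and Malat1. Of the other counts, the small RNA genes took 1.10% to 1.34% in WT and 1.53% to 1.97% in KO. Without Rmrp these shares were 0.391% to 0.479% and 0.399% to 0.474%, so the genotypes overlapped. Marker levels showed that the KO library at 0 min stood apart. Its 4 cartilage markers summed to 372.8 CPM (counts scaled to a common effective library size), against 9.54 to 35.3 in the other KO libraries and 1.37 to 2.33 in WT, and its 4 epithelial markers to 5.68, against at most 0.826 elsewhere. The 5 macrophage markers summed to 44.3 to 60.6 in WT and 5.57 to 7.95 in KO, and the 10 fibroblast markers to 6351 to 9006 and 5819 to 7923. The part of these cell types in the results was not tested, and in a bulk library fewer cells of a type and less RNA per cell cannot be told apart.

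Rmrp gave 410242 of the 577932 counts of the 300 genes (70.98%). Levels between genes are compared as mean CPM per kb over the 8 libraries. Rmrp was at 13790, Snord22 at 1355, Snora73b at 736.1, Gm22442 (a scaRNA in an intron of Chd3) at 496.9 and Scarna13 at 300.4. The median was 18.4 over all 300 genes, and 113 genes had a mean of under 20 counts per library. The 38 genes with C/D boxes had a median of 43.2, the 52 with the ACA triplet 17.6, the 100 miRNA genes 21.3 and the 30 snRNA genes 9.79. The most abundant Mir gene, Mir27b, was at 126.0. The minor spliceosome genes Rnu12 and Rnu11 were at 7.51 and 6.42.

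**Figure D1:**
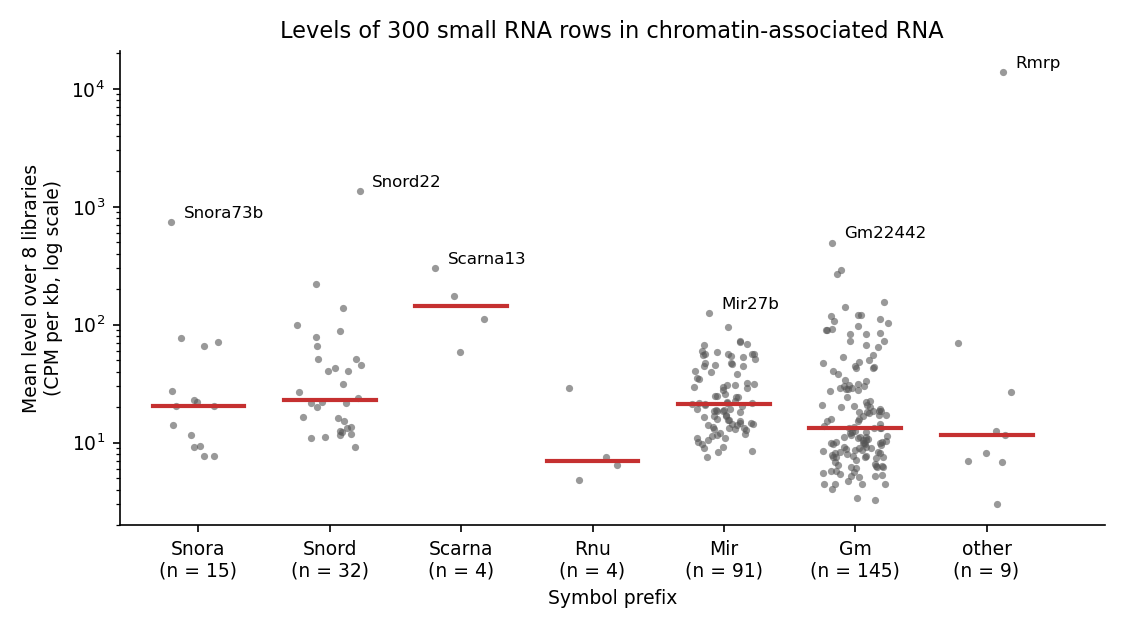
Mean level of each of the 300 genes over the 8 libraries, in CPM per kb on a log axis, by symbol prefix. Each point is 1 gene and each red bar the median of its group. Rmrp, at 13790, lies above all others, and the Scarna group has the highest median.

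Of the 300 genes, 204 lay inside a longer gene on the same strand in the deposited table, 196 of them in introns and 8 over a host exon. They had 165 hosts, of which 21 held 2 or more. Intronic positions were held by 29 of 32 Snord, 13 of 15 Snora, 110 of 145 Gm and 35 of 91 Mir genes. Of the 96 genes with no such host, 21 lay within a longer same-strand gene in GENCODE M21, among them Snord22 in Snhg1 and Scarna13 in Snhg10. Counts on these genes came from fragmented RNA read for 50 nt, so reads of the unspliced host cannot be told apart from those of the small RNA. Among miRNA genes of the whole table that a gene of at least 5000 counts spanned, with under 100 counts in any gene across the other strand, 132 of 229 reached 10 summed counts where that gene ran on the same strand, and 4 of 41 where it ran on the opposite strand.

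For the 196 intronic genes, counts per base were set against those of the exons of the host. The ratio had a median of 1.46 (range 0.165 to 384) and was at least 1 in 130 genes and at least 10 in 18. It was highest for the snoRNAs with C/D boxes (median 4.04, n = 28) and with the ACA triplet (2.55, n = 46), and lower for the intronic Mir genes (1.22, n = 35 of 91, range 0.267 to 6.54). Snora73b stood at 184 times the exon density of Rcc1. Gm26448 stood at 54.4 times that of Rpsa. Of the Gm genes, 26 of 145 aligned over at least 80% of their length to a named small RNA. Any 50 bases were shared with another annotated gene in 40 of the 300 genes. Gm22579 shared its whole sequence with other annotated genes, so its counts may be split or joined by the mapping and are uncertain.

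Between genotypes, with the 4 times as a block, KO libraries held more Rmrp and less Snora73b, more of Gm23455 and Gm22579 at the Taf1d locus, and less of a U2-like snRNA. Of the 300 genes, 15 were higher and 11 lower in KO (edgeR quasi-likelihood test, adjusted p under 0.05 by Benjamini-Hochberg over 15049 genes). That is 8.67% of the small RNA genes, against 16.3% of all genes tested, or 5.00% against 6.81% for higher and 3.67% against 9.44% for lower. At an unadjusted p under 0.05 the counts were 63 of 300 and 30.3% of all. The CPM ranges of the genotypes did not overlap for 25 small RNA genes (8.33%), against 13.6% of all genes. Without either library at 45 min there were 8 calls, all among the 26. Without any other library there were 17, of which 14 to 17 were among the 26. With total counts as the scale, which moved the median of all genes from 0.01 to −0.17, there were again 26 calls, now 5 higher and 21 lower, of which 16 were among the first 26. With scaling on the small RNA genes alone there were 8 higher and 11 lower, of which 18 were. Of the 26 genes, Gm11874, Gm27818, Mir615 and Snord87 reached the minimum of 10 counts in fewer than 2 libraries outside the genotype where they were higher. They entered the test through that genotype alone, so their direction was fixed by the filter, and their values are given as a description. Only Rmrp, Snora73b, Gm23455, Gm22579 and Gm22973 were called under each of the 14 alternatives, which are not independent of each other and do not vary the mapping.

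At 0, 15, 45 and 60 min Rmrp stood at 2946, 3025, 3244 and 2567 CPM in WT libraries, and at 4428, 4508, 5376 and 3800 in KO libraries. All 4 KO libraries were above all 4 WT libraries, and neither genotype moved in 1 direction with time. The log2 difference was 0.61 ± 0.07 (SE; adjusted p = 0.00037, edgeR), and 0.43 to 0.63 over the alternatives. Rmrp lies in no host gene and shares no 50 bases with another annotated gene.

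Snora73b, an H/ACA snoRNA of the U17 family, which takes part in cutting precursor ribosomal RNA, stood at 213.3, 221.4, 202.6 and 181.5 CPM in WT. In KO it was at 82.9, 93.7, 114.2 and 97.5. The ranges were far apart, with the highest KO library below the lowest WT library at every time, and the log2 difference was −1.08 ± 0.10 (adjusted p = 8.05e-05, edgeR). It lies in introns of the overlapping genes Snhg3 and Rcc1, of which neither was lower. Snhg3 was higher in KO (log2 difference 0.83, adjusted p = 0.0023, edgeR) and Rcc1 was at 0.37 (adjusted p = 0.053, edgeR).

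Gm26448, the relative of Snora73b in Rpsa, stood at 52.8, 51.8, 46.9 and 44.8 CPM in WT and at 59.1, 62.4, 85.9 and 66.8 in KO. Every KO library was above every WT library, and the log2 difference was 0.47 ± 0.11 (adjusted p = 0.019, edgeR). Rpsa, which encodes a ribosomal protein, was higher by a like amount (0.46, adjusted p = 0.023, edgeR). The call on Gm26448 was lost without a library at 45 or 60 min and with total counts (0.29).

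Gm23455 stood at 13.0, 17.3, 19.4 and 14.8 CPM in WT and at 30.2, 38.5, 40.1 and 42.6 in KO, and the log2 difference was 1.24 ± 0.10 (adjusted p = 4.01e-05, edgeR). Gm22579, its neighbour, was at 6.60, 9.94, 10.2 and 8.82 in WT and at 14.1, 20.1, 16.1 and 17.1 in KO (0.93 ± 0.11, adjusted p = 0.00033, edgeR). For both genes each KO library was above every WT library. The 7 small RNA genes kept between Taf1d and Cep295 summed to 39.9 to 47.8 CPM in WT and 61.7 to 82.7 in KO. Of the 7, only Gm23455 and Gm22579 were called, both higher (2 of 7, against 6.81% of all genes). Both are part of these sums, which thus do not show a difference of the other genes. With these 2 included, 5 of the 7 genes were above 0 in KO, with a median of 0.52, so some genes not called also lay above 0. The most abundant gene not called, Gm25791, upstream of Gm23455, was at 12.1 to 14.9 in WT and 10.7 to 16.9 in KO (0.08 ± 0.14). Exonic counts of Taf1d, whose GENCODE M21 model spans the 7 genes, gave a log2 difference of −0.03 (adjusted p = 0.86, edgeR).

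**Figure D2:**
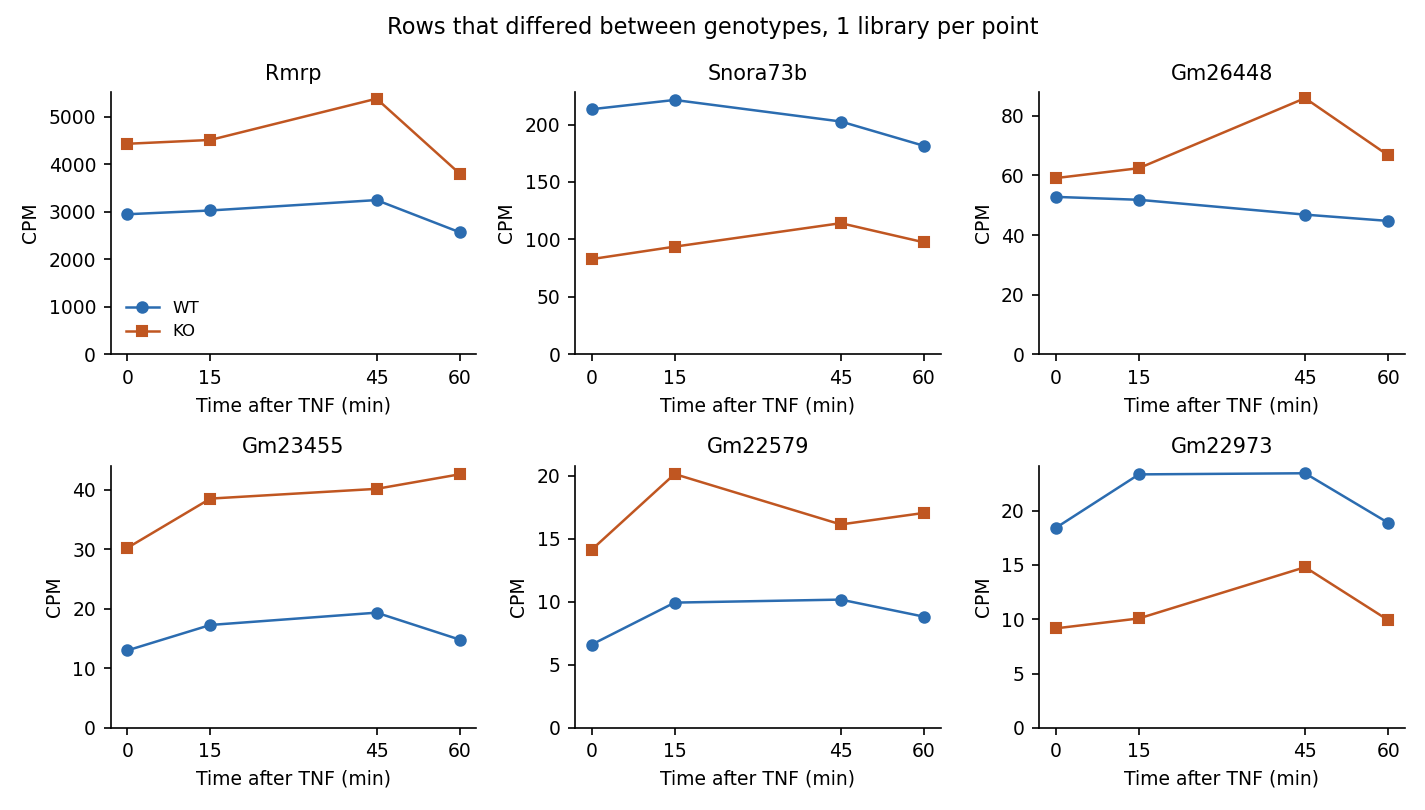
CPM of 6 genes by time after TNF, WT as blue circles and KO as orange squares, 1 library per point with no replicate and hence no error bar. All KO points of Rmrp, Gm26448, Gm23455 and Gm22579 lie above all WT points, and those of Snora73b and Gm22973 below.

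Among the other snoRNAs higher in KO were Gm22154 in Pabpc4, at 1.09 to 1.94 CPM in WT and 2.18 to 3.45 in KO (0.91 ± 0.20), and Snora21 in Rpl23, at 1.40 to 2.89 and 2.87 to 4.21 (0.76 ± 0.20). Their adjusted p values were 0.013 and 0.030 (edgeR). Snora7a, Snora78 and Snord49b, which are among the most abundant of their groups, differed by 0.43, 0.49 and 0.40 (adjusted p = 0.047, 0.019 and 0.039, edgeR). Their calls were lost under 10, 8 and 10 of the 14 alternatives. Those on Gm22154 and Snora21 were lost under 2 and 10. The ranges of the genotypes overlapped for all of these genes but Gm22154. The remaining calls, named after their values were seen, were Snord49a, Snord87 and Snord104, the scaRNA Gm23119, the pseudogene Gm2399 and the miscellaneous RNA Gm24629, at 0.52 to 1.06. These were lost under 2 (Gm23119) to 12 (Snord49a and Snord87) of the 14 alternatives. Of all 15 Snora genes 13 were above 0, with 3 called higher and 1 lower, and a median of 0.34. Of the 32 Snord genes 25 were above 0, with 4 called higher, and a median of 0.21. Among these 4, Snord87 had its direction fixed by the filter, as stated above, and is no support. Of all genes 6.81% were called higher and 9.44% lower. The median over all 15049 genes was 0.01. With total counts no Snora or Snord gene was called higher, 1 of each was called lower, and the medians were 0.16 and 0.02.

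Ribosomal protein genes hosted 25 of the small RNA genes. Of these 22 were above 0 in KO, with a median of 0.26, or 0.08 with total counts. Called higher were 3 (12.0%) and lower none, against 6.81% and 9.44% of all genes. They summed to 136.1 to 156.9 CPM in WT and 166.6 to 215.5 in KO, so the summed ranges did not overlap. The called genes are part of these sums, among them Gm26448, which had the most counts of the 25. The sums thus do not show a difference of the other genes. The most abundant snoRNA outside a deposited host, Snord22, was at 148.7 to 190.6 in WT and 151.8 to 209.9 in KO (0.16 ± 0.09, adjusted p = 0.27, edgeR).

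Gm22973 was the U2-like gene with the clearest difference, at 18.4, 23.3, 23.4 and 18.9 CPM in WT and 9.16, 10.1, 14.8 and 9.91 in KO (−0.95 ± 0.11, adjusted p = 0.00033, edgeR). Gm25360 was at 23.9, 32.3, 28.6 and 24.4 in WT and 14.2, 17.0, 23.7 and 22.2 in KO (−0.51 ± 0.13, adjusted p = 0.026, edgeR). In both, all KO libraries were below all WT libraries. The call on Gm25360 was lost without a library at 0 min (−0.44) or 15 min (−0.38). Gm25939, with 3 differences from Rnu2-10, was at −0.44 ± 0.14 (adjusted p = 0.058, edgeR). Rnu2-10 and its identical copy Gm23849 had 99 and 92 counts in all, too few to read a direction, and the sources used here do not say how reads that map to several places were counted. Each of the 3 U2-like genes with the most counts has bases that differ from Rnu2-10. Even so, Gm25360, Gm25939 and Gm22973 shared 38.0%, 58.5% and 12.0% of their stretches of 50 bases with other annotated genes. Their counts may thus be split or joined by the mapping and are uncertain.

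Of the 100 miRNA genes none was called higher in KO, against 6.81% of all genes, and 4 were called lower (4.0%), against 9.44% of all genes. Mir196a-1 was at 2.20, 2.95, 2.65 and 2.75 CPM in WT and 1.32, 1.501, 0.795 and 1.35 in KO (−1.08 ± 0.23, adjusted p = 0.011, edgeR), with no overlap. It lies 6192 bases before Hoxb9, a homeobox transcription factor gene, which was lower by −1.02 (adjusted p = 0.000146, edgeR). Mir615, in an intron of Hoxc5, was at 1.37 to 1.80 in WT and 0.601 to 1.08 in KO (−1.02, a description as stated above), and Hoxc5 was at −1.21 (adjusted p = 0.00012, edgeR). Mir196a-1 and Hoxb9 were thus both at lower levels in KO, whereas the direction of Mir615 was fixed by the filter and is no support for a shared difference with Hoxc5. Mir1955 in Phf21a (−0.94 ± 0.28) and Mir701 in Ttc28 (−0.73 ± 0.20) were the other 2, with overlapping ranges and adjusted p values of 0.046 and 0.036 (edgeR). Ttc28 itself was at 0.03. Mir196a-1 lost its call without a library at 45 min (−0.91), and Mir615, Mir1955 and Mir701 under 8, 9 and 10 of the 14 alternatives.

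The largest differences were in genes with few counts. Gm27818, a miscellaneous RNA in an intron of Fas, the death receptor gene, was at 1.07, 1.01, 2.79 and 2.02 CPM in WT and 0.598, 0.353, 0.159 and 0.225 in KO (−2.22, a description as stated above). Fas was at −1.90 (adjusted p = 0.0098, edgeR). Without a library at 45 min Gm27818 was at −1.71. Gm11874, described with the WT response, was at −3.48, with its counts in the WT libraries at 45 and 60 min and overlapping ranges. The Rian snoRNA Gm23600 (−0.52) and Gm23787 (−0.40) belong to the imprinted cluster below.

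Genes in introns were compared with the exonic counts of their hosts. Over 195 intronic genes in 160 tested hosts, the log2 difference between genotypes correlated with that of the host (Pearson r = 0.643, Spearman rank correlation rho = 0.563). Both come from the same 8 libraries, and genes of 1 host share its value. For the 66 genes with a density below that of the host exons r was 0.822, and for the 129 at or above it 0.513. Where the host was called higher in KO, 25 of 28 genes in 21 hosts were above 0 and 6 were called higher. Where it was called lower, 2 of 23 genes in 15 hosts were above 0 and 3 were called lower. Among the calls in both groups of hosts, those on Snord87, Gm27818 and Mir615 had their direction fixed by the filter, as stated above. Snora73b was the plainest exception.

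**Figure D3:**
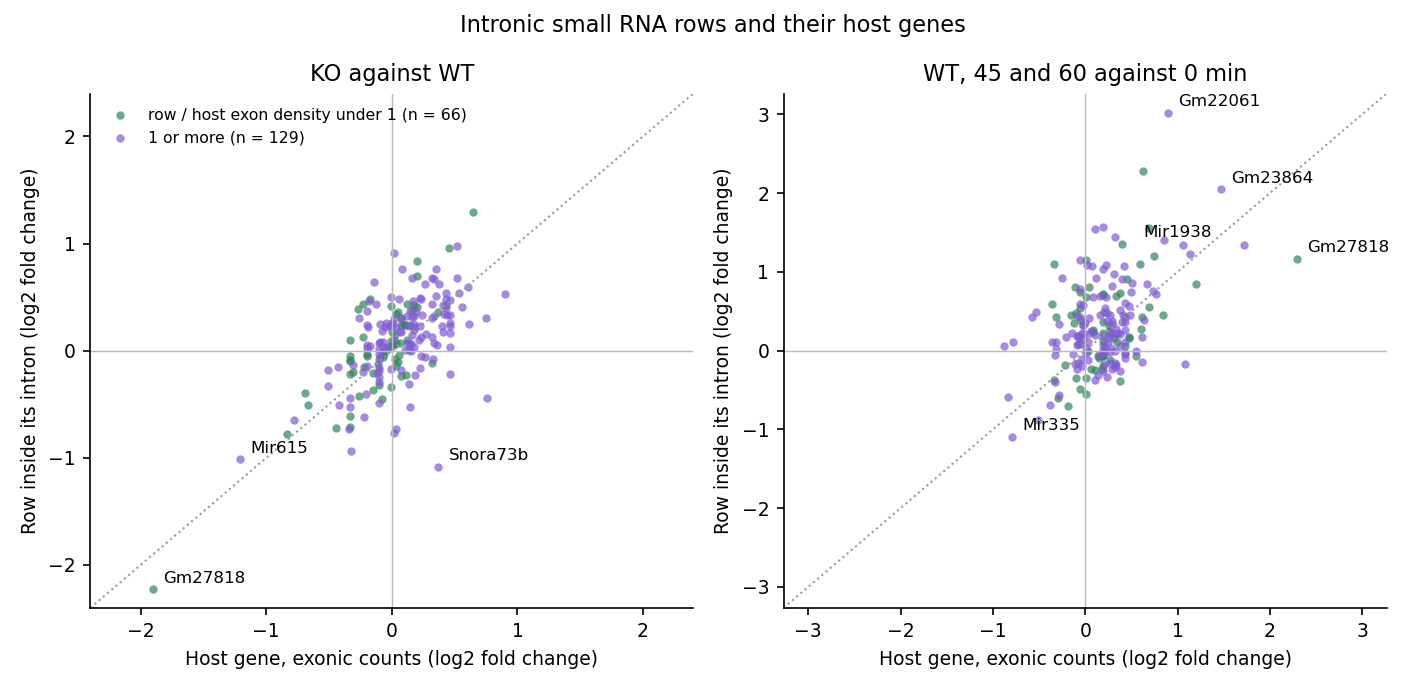
log2 fold change of each intronic small RNA gene (y) against the exonic counts of its host (x), for KO against WT (left) and for WT at 45 and 60 min against 0 min (right). Green points have fewer counts per base than the host exons and purple points at least as many, and the dotted line marks equal change. Snora73b lies below 0 with its host above 0.

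The imprinted cluster on chromosome 12 from Meg3 to Mirg (chr12:109541001-109749460, plus strand) is a maternally expressed row of long noncoding RNAs with many snoRNA and miRNA genes. It held 59 of the 300 genes, 45 Mir and 14 others. Of these 16 were above 0 in KO, with a median of −0.12. Gm23600 and Gm23787 were called lower, 2 of 59 (3.39%), against 9.44% of all genes. With total counts, which moved the median of all genes to −0.17, 4 were above 0 and 8 were called lower. On that scale 3379 of 15049 genes were called in either direction. The Mir genes had a median of −0.09 and the other 14, of which 5 lie in introns of Rian, −0.29. Of the long RNAs, Meg3 was at −0.27 (adjusted p = 0.037, edgeR), Rian at −0.33 (adjusted p = 0.021, edgeR) and Mirg at −0.10 (adjusted p = 0.42, edgeR). The summed level of the 59 genes was 181.5, 222.1, 209.2 and 195.3 CPM in WT and 153.0, 175.8, 185.2 and 229.9 in KO. The KO library at 60 min was thus the highest of all 8, and the other 3 KO libraries were below the WT library of the same time.

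**Figure D4:**
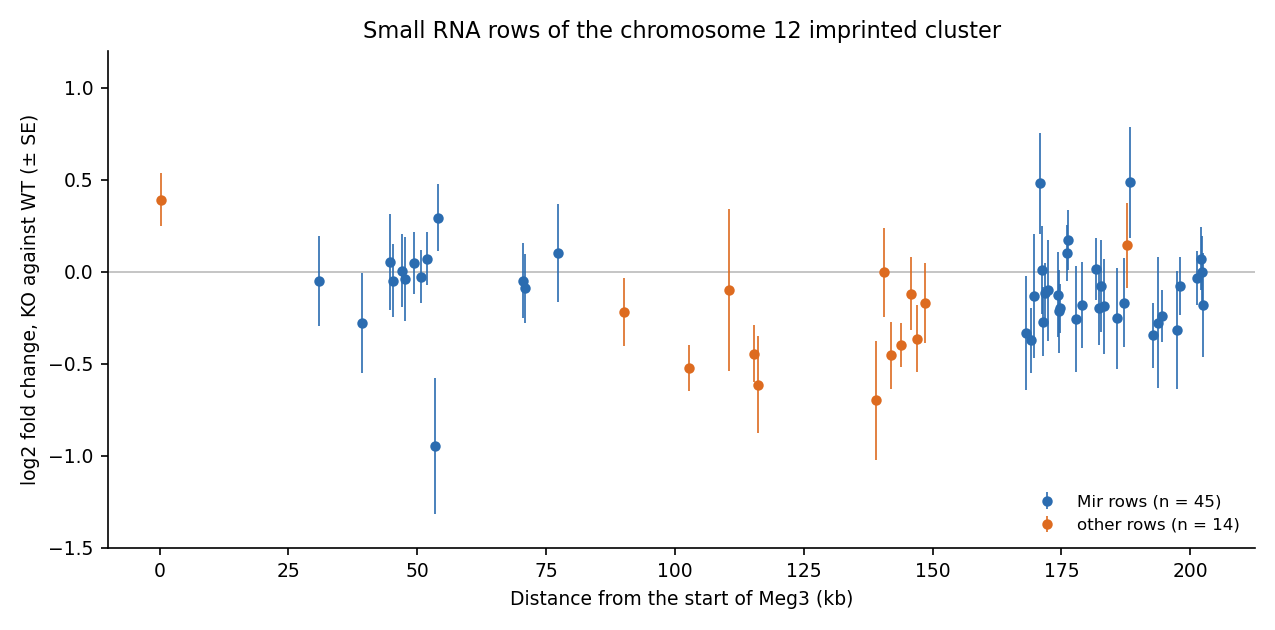
log2 difference of KO against WT with its standard error for the 59 small RNA genes of the chromosome 12 cluster, by distance from the start of Meg3 in kb, with Mir genes in blue and others in orange. Of the 14 orange points 12 lie below 0, and of the 45 blue points 31.

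After TNF, few small RNA genes changed. At 15 min, with the genotypes together, 1 of 300 was higher (0.333%, against 0.14% of all genes) and none lower. This was Mir1938, in an intron of Ifrd1, a gene known to respond early to growth and stress signals. It stood at 1.40, 5.33, 3.65 and 3.47 CPM in WT and at 1.56, 5.12, 4.77 and 2.85 in KO. In each genotype the library at 15 min was the highest, and the log2 change at 15 min was 1.82 ± 0.26 (adjusted p = 0.040, edgeR). The call was lost without any single library at 0, 15 or 45 min, with values of 1.74 to 1.89. At an unadjusted p under 0.05 there were 42 of 300 genes, against 7.99% of all. The exons of Ifrd1 gave 1.07 at 15 min (adjusted p = 0.20, edgeR) and 1.16 at 45 and 60 min (adjusted p = 0.0057, edgeR).

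At 45 and 60 min against 0 min in both genotypes together, 15 genes were higher and 2 lower (5.67%, against 13.8% of all genes, with 7.68% higher and 6.16% lower). With total counts, which moved the median of all genes from −0.01 to −0.22, these were 10 and 6, and with scaling on the small RNA genes alone 9 and 7. Without the WT library at 0 min there were 5 calls, and without the KO library at 0 min 4. Without the WT library at 45 min there were 9, and without the KO library at 45 or 60 min 10. None of the 17 genes was called under every alternative. Of the 17, Gm11874, Mir27a, Gm22061 and Gm26132 reached 10 counts in fewer than 2 libraries outside those at 45 and 60 min, so their direction here was fixed by the filter. The median log2 change of the 300 genes was 0.26 at 45 and 60 min and 0.26 at 15 min, against −0.01 and 0.003 over all genes, and 235 of 300 were above 0 in each. Since both comparisons share the 0 min libraries, the 2 values are not independent. With total counts the small RNA medians were 0.05 and −0.08, and those of all genes −0.22 and −0.34.

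The genes higher at 45 and 60 min included Gm23722 in Rnf149 (2.03 ± 0.37), Gm23864 in Ddr1 (1.67 ± 0.38), Gm24041 in Tmem65 (1.36 ± 0.27), Mir1938 (1.30 ± 0.24) and Mir23a (1.45 ± 0.34). The hosts Rnf149 (1.24) and Ddr1 (0.96) were called higher (adjusted p = 0.0023 and 0.027, edgeR). Tmem65 was not (0.31, adjusted p = 0.22, edgeR). Mir23a and Mir27a are known to share a primary transcript, and Gm26532, a gene on the same strand, starts 162 bases after Mir27a. Mir23a was at 0.533, 1.37, 1.94 and 2.39 CPM in WT and 0.957, 1.501, 2.15 and 1.80 in KO, with each later library above the 0 min library of its genotype (adjusted p = 0.021, edgeR). Mir27a, named after its values were seen, was at 0.400, 0.648, 1.36 and 0.795 in WT and 0.479, 0.353, 1.35 and 2.18 in KO (1.67, a description as stated above). Gm26532 rose by 1.37 (adjusted p = 0.0012, edgeR). The Mir23a and Mir27a calls were lost under 6 and 8 alternatives. The other 9 genes called higher were Gm11874, Gm22061 and Gm26132, described below, Gm23455 (0.42), Gm23787 (0.63), Mir758 (0.69), Mir432 (0.88), Gm23205 in Rnf14 (1.02) and Mir3109 in Anxa2 (1.29), the last 6 named after their values were seen. Anxa2 itself was not called (0.29, adjusted p = 0.090, edgeR).

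Mir335 fell, from 2.47 and 2.95 CPM in WT at 0 and 15 min to 0.645 and 1.66, and from 1.62 and 2.30 in KO to 0.715 and 0.826 (−1.14 ± 0.30, adjusted p = 0.033, edgeR). Its host Mest, an imprinted gene, fell as well (−0.75, adjusted p = 0.0027, edgeR). All 4 late libraries of Mir335 were below the 0 min library of their genotype. The call was lost under 6 alternatives, among them without the library at 0 or 15 min of either genotype, without the WT one at 45 min or without the KO one at 60 min (−1.21 to −0.95). The other lower gene was the pseudogene Gm4468 in Lima1 (−0.95 ± 0.28, adjusted p = 0.0497, edgeR).

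In WT cells alone, 4 small RNA genes were higher at 45 and 60 min and none lower (1.33%, against 5.48% of all genes, with 4.17% higher and 1.31% lower). At an unadjusted p under 0.05 there were 29 of 300 (against 18.8% of all genes), and DESeq2 called none. Gm11874, an annotated processed pseudogene, was counted 2, 0, 62 and 36 times in the WT time course and 2, 2, 1 and 2 times in that of KO. It passed the filter on low counts only through the 2 late WT libraries, so its call in WT had its direction fixed by the filter and is no support for a change. The fitted log2 change in WT, 4.63, rests on 2 counts at 0 min. The plain ratio of the late CPM to that at 0 min was 26.5, with an exact 95% interval for counting error of 7.13 to 221.4. Both values describe the libraries through which the gene was selected and are no test. It lies 1845 bases from Ripk2, a kinase gene of NOD receptor signalling on the same strand, whose WT counts were 113, 150, 2458 and 1903 and whose KO counts were 107, 77, 53 and 50 (4.38 in WT, adjusted p = 1.5e-06, edgeR). Gm11874 had its counts in the same 2 libraries in which Ripk2 was high. The difference between the responses of the genotypes was called for Ripk2 (5.06, adjusted p = 4.76e-05, edgeR) and not for Gm11874 (4.68 ± 1.86, adjusted p = 0.52, edgeR). Without either of these libraries Gm11874 did not pass the filter.

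Gm23864, an snRNA gene in an intron of Ddr1, a collagen receptor gene, was at 1.07, 0.936, 4.01 and 4.92 CPM in WT and 0.898, 1.501, 1.91 and 2.18 in KO. The change in WT was 2.06 ± 0.41 (adjusted p = 0.012, edgeR), and Ddr1 rose by 1.47 (adjusted p = 0.00069, edgeR). Gm22061, an snRNA gene 96.3% identical to Rnu6 in an intron of Rara, was at 0.200, 0.504, 2.01 and 1.37 in WT and 1.02, 0.707, 1.83 and 2.63 in KO (3.02 ± 0.71 in WT, adjusted p = 0.027, edgeR). Its WT library at 0 min had 3 counts, and the plain ratio was 8.46 with an interval of 2.72 to 42.5. The call was lost without the WT library at 45 min (2.71). Mir23a rose by 2.0 ± 0.52 (adjusted p = 0.043, edgeR), a call lost under 7 of 14 alternatives, among them without the WT library at 60 min (1.83), with total counts (1.80), with scaling on the small RNA genes alone (1.77) and with 15 min as the start (0.66). Of the 13 small RNA genes whose host was called higher in WT, 12 were above 0, with a median of 1.34 against 1.06 for the hosts, and 2 were called. Over the 195 intronic genes Pearson r with the host was 0.453 and Spearman rho 0.319.

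In KO cells 3 small RNA genes were higher at 45 and 60 min and none lower (1.00%, against 1.83% of all genes, with 1.32% higher and 0.518% lower), all of them intronic snoRNAs with the ACA triplet. At an unadjusted p under 0.05 there were 48 of 300 (against 17.7% of all genes), and DESeq2 called none. Gm23722 was at 0.658, 2.21, 4.45 and 4.06 CPM in KO and 0.934, 2.02, 1.86 and 2.89 in WT (2.67 ± 0.47 in KO, adjusted p = 0.016, edgeR), and Rnf149 rose by 1.41 (adjusted p = 0.014, edgeR). Gm26132, a relative of Snora57 in St3gal2, was at 0.299, 1.15, 2.70 and 2.63 in KO and 0.600, 0.504, 1.22 and 2.39 in WT (3.12 ± 0.63 in KO, adjusted p = 0.030, edgeR). Gm25848, in an intron of Fbxo45, was at 0.598, 3.97, 8.11 and 6.61 in KO and 2.87, 5.40, 4.37 and 3.47 in WT (3.60 ± 0.41 in KO, adjusted p = 0.0015, edgeR). The hosts St3gal2 and Fbxo45 were at 0.62 and 0.34 in KO, and neither was called (adjusted p = 0.19 and 0.55, edgeR). For all 3 small RNA genes, the KO library at 0 min was the lowest of the 8, and this was the library that stood apart by its cartilage and epithelial markers. Against the KO library at 15 min the changes were 0.94, 1.21 and 0.89, and none was called. Without the WT library at 45 or 60 min the count of calls in KO was 5 or 9.

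The difference between the late responses was called for Gm25848 alone, 1 of 300 (0.333%, against 0.498% of all genes), and it was the only gene of 15049 called in that direction (0.00664%). The response of WT minus that of KO was −3.15 ± 0.55 (adjusted p = 0.026, edgeR). Fbxo45, an F-box protein gene, gave 0.14 for the same difference. The call was lost without the KO library at 45 min (−3.0), with DESeq2 (−3.17) and with 15 min as the start (−1.35). At an unadjusted p under 0.05 there were 14 of 300 genes, against 7.64% of all.

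**Figure D5:**
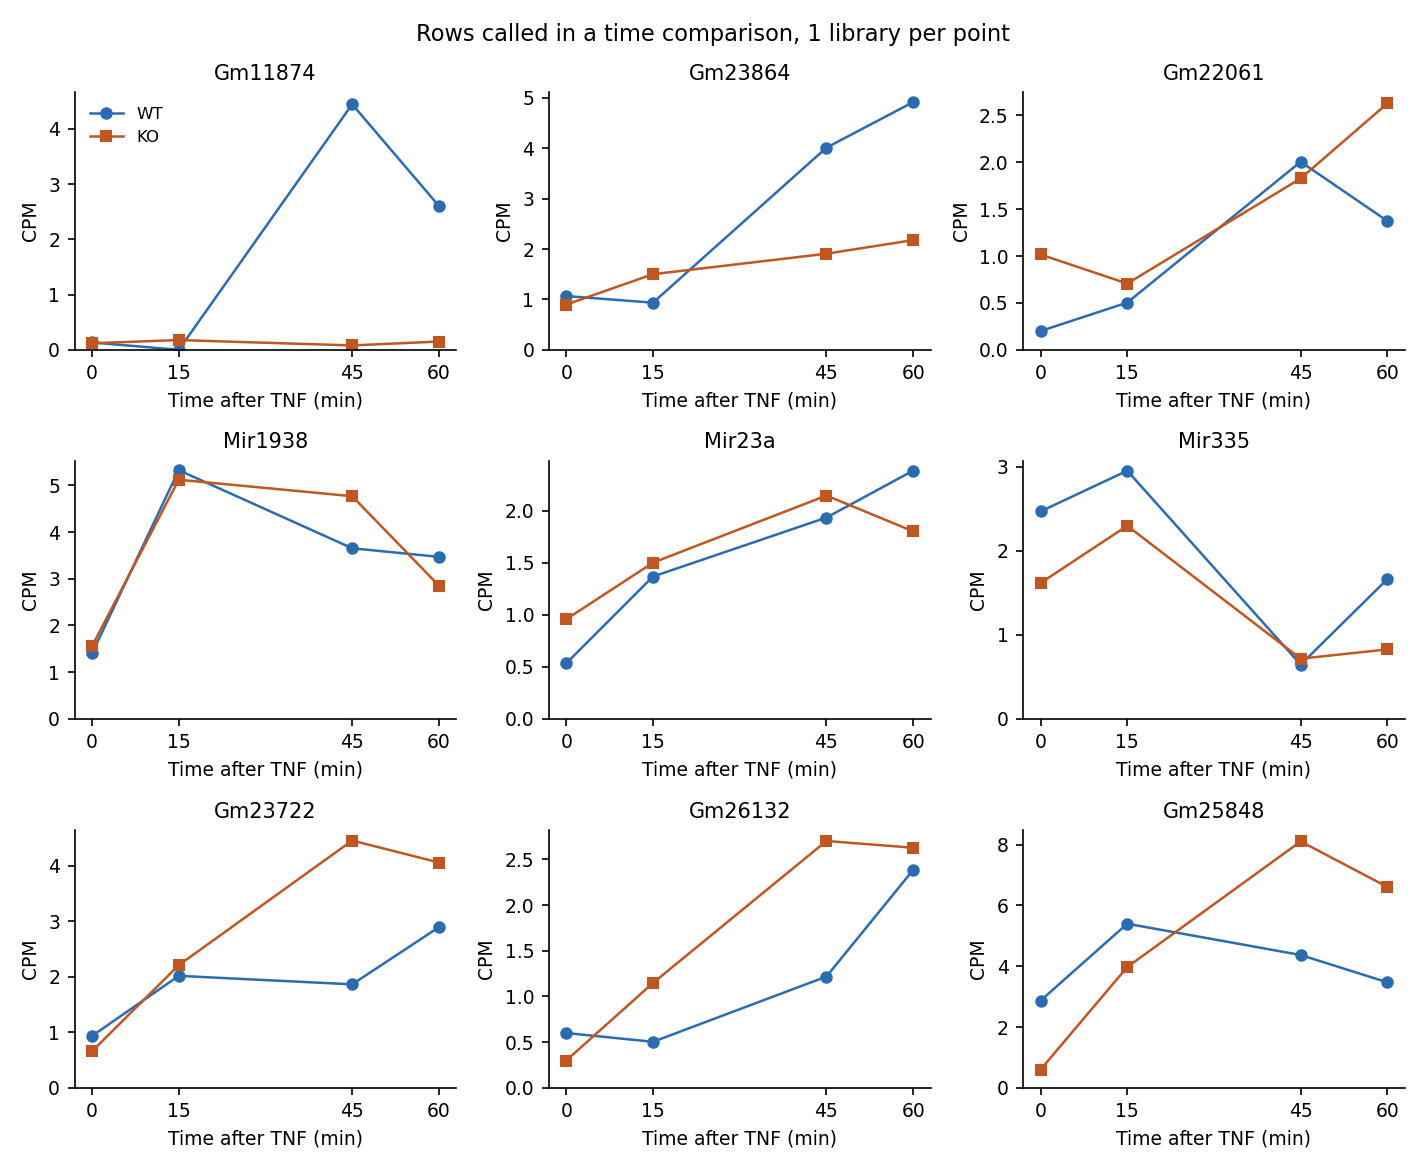
CPM of 9 genes by time after TNF, WT as blue circles and KO as orange squares, 1 library per point with no replicate. Gm11874 has counts above the floor of 3 only in WT at 45 and 60 min, Mir1938 rises by 15 min in both genotypes, and Gm25848 starts lowest in KO at 0 min.

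Genes that make or process these RNAs were taken from lists drawn up with earlier results known. The counts below stand against 6.81% of all genes called higher and 9.44% called lower in KO, 7.68% and 6.16% at 45 and 60 min in both genotypes together, 4.17% and 1.31% in WT, and 1.32% and 0.518% in KO. None of the 4 C/D proteins (Fbl, Nop56, Nop58 and Snu13) and none of the 4 H/ACA proteins (Dkc1, Nhp2, Nop10 and Gar1) was called in any comparison, with medians of 0.46 and 0.25 between genotypes. Of 15 assembly factors, Naf1, which brings H/ACA proteins to the nascent RNA, was higher in KO (0.62 ± 0.18, adjusted p = 0.039, edgeR). Of 6 noncoding hosts with several snoRNAs that were tested, 4 were higher in KO, Snhg3 (0.83), Snhg5 (0.36), Snhg6 (0.46) and Snhg12 (0.36). Of 25 genes for snRNA transcription and 3′ end formation, the elongation factor gene Ell2 was lower in KO (−0.69 ± 0.17) and rose in WT at 45 and 60 min (1.20 ± 0.28). Pou2f1, a transcription factor that binds snRNA promoters, fell in WT (−0.73 ± 0.18, adjusted p = 0.031, edgeR) and in both genotypes together (−0.66). Ints9, a subunit of the Integrator complex that cuts the 3′ ends of snRNAs, fell in both together (−0.50, adjusted p = 0.049, edgeR), and Ell2 was called higher there too. Of 15 Sm and Lsm genes tested, Lsm11 was higher in KO (0.51 ± 0.13) and at 45 and 60 min in both genotypes together (0.57 ± 0.16).

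Of 10 miRNA processing genes, the Argonaute genes Ago3 and Ago4 were lower in KO (−0.28 and −0.46, adjusted p = 0.031 and 0.039, edgeR). Dgcr8, the partner of Drosha, and Xpo5, the exporter of the hairpins, were higher at 45 and 60 min in both genotypes together (0.50 and 0.75), and Ago1 and Ago4 were lower (−0.37 and −0.66). In WT alone Xpo5 was the only one of the 10 called (1.02). Of 18 miRNA loci known to respond to TNF or NF-kB, 6 were tested. Mir155hg, the primary transcript of miR-155, rose in WT (3.20 ± 0.43, adjusted p = 0.00093, edgeR), and Mir17hg, that of the miR-17 to miR-92 cluster, rose in WT (1.96) and in KO (1.71). Of these 18 loci, Mir221 and Mirlet7i are among the 300 genes. Mir221 was at 1.08 to 1.65 CPM in WT and 1.20 to 2.39 in KO, and Mirlet7i at 0.667 to 1.30 and 0.636 to 1.20, and neither was called in any comparison.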

How the data were processed

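Per the labels' protocols, stranded libraries were built from rRNA-depleted chromatin-associated RNA of 8 samples and read for 50 nt from 1 end. The submitters' processing notes name cutadapt 1.12, STAR, featureCounts 1.5.0, DESeq2 and the build mm10. The sources used here give neither the strand setting nor the annotation release. The authors deposited raw counts, 1 whole number for each gene and library, per the file headers. Library totals of 12359817 to 15607331 counts set the floor of 3 counts at 0.192 to 0.243 CPM. Intervals and floors cover counting error only.

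A gene was tested if 2 or more libraries had 10 or more counts of it, which left 15049. TMM factors ran from 0.817 to 1.215. The test was the quasi-likelihood test of edgeR 4.0.16 (R 4.3.3), and p-values were adjusted by Benjamini-Hochberg over the 15049 genes, with 0.05 as threshold. Genotype, 15 min and the mean of 45 and 60 min came from a fit of time plus genotype with 3 residual degrees of freedom. The late response of each genotype and its difference came from 6 cell means with 2. Standard errors are the log2 fold change over the square root of F. With 1 library per genotype and time, spread is estimated across times, so p-values measure that spread only. CPM uses the effective library size. The fits were tested on simulated data.

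Coordinates, biotypes and transcripts came from GENCODE M21, which matched all 300 genes, and 299 of them with the same coordinates. BLAST+ 2.17.0 found relatives, and matplotlib 3.10.9 drew the plots. Genes were named if called (all where up to 10 were called, otherwise the 5 largest changes each way with a mean of at least 20 counts), among the 4 most abundant of a prefix group, or, for Mir genes, in a host called in WT. Snord49a, Snord87, Snord104, Gm23119, Gm2399, Gm24629, Gm25360, Gm25939, Gm25791, Mir615, Gm27818, Gm23600, Gm23787, Mir27a, Mir758, Mir432, Gm23205 and Mir3109, and Gm23455 for its late response, were named after their values were seen. The genes and lists were chosen with earlier results of these data known. Gm23935 was left out by the selection rule. Alternatives were DESeq2 1.42.0, RLE scaling, total counts, scaling on the small RNA genes alone, no filter, no time block, 0 and 15 min as the baseline, each library left out and, chosen after seeing the data, 15 min as the baseline.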

Additional observations from a re-analysis of the deposited data

Results flagged for a closer look

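Gm25848, a snoRNA gene in an intron of Fbxo45, was the only small RNA gene whose late response differed between the genotypes by the test of the difference itself. The log2 change of WT minus that of KO was −3.15 ± 0.55 (adjusted p = 0.026, edgeR). In each genotype both late libraries lay above that at 0 min. Against the library at 15 min both lay below in WT and above in KO, and the difference from that start was −1.35 and not called. The KO library at 0 min held 10 counts of Gm25848, against 45 to 102 in the other KO libraries.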

How the results depend on the processing

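The comparison of genotypes pairs the libraries by time, and the fit with no time block is its unpaired form. Counts of small RNA genes called were within 1.5 times the main count under the settings not named here. For KO against WT (26) DESeq2 called 9 and a fit with no time block 8, and leaving out 1 library gave 8 to 17. For 45 and 60 min in both genotypes (17) DESeq2 called 1, no filter 27 and 15 min as the baseline 9, with 4 to 18 on leaving out 1 library. For 15 min (1) scaling on the small RNA genes alone called 0 and no filter 4, with 0 to 1 on leaving out 1 library. For WT (4) DESeq2 called 0, no filter 2, 0 and 15 min as the baseline 8 and 15 min alone 2, with 3 to 4. For KO (3) total counts and scaling on the small RNA genes alone called 5 each, DESeq2 0, no filter 1, 0 and 15 min as the baseline 10 and 15 min alone 0, with 2 to 9. For the difference of responses (1) DESeq2, no filter and both other baselines called 0, with 0 to 1. DESeq2 gave no adjusted p for 227 of the 300 genes at 45 and 60 min, 94 in WT and 259 in KO, which limits its counts. Of the single genes, Mir1938 at 45 and 60 min reversed to −0.52 against 15 min, the time at which it was highest. Leaving out 1 library kept the call of a named gene in 226 cases and lost it in 175, and total counts kept 35 and lost 17. The 226 cases are not independent, since the WT and KO library of a time give nearly the same genotype test. In the fits of each genotype alone, libraries at 15 min and that of the other genotype at 0 min hardly bear on the response. Calls kept without those libraries are no support. Apart from those stated, the cause was not tested. With the WT or KO library at 0 min left out, the response of that genotype could not be fitted. With 113 of 300 genes under a mean of 20 counts, small changes were not detectable at this depth.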
